A study of Mus musculus with 16 samples.

Results

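The 10 genes described here encode the transforming growth factor β (TGF-β) ligands, their receptors, proteins of latency and 2 genes that signalling induces: Tgfb1, Tgfb2, Tgfb3, Tgfbr1, Tgfbr2, Tgfbr3, Ltbp1, Ltbp2, Smad7 and Ccn2. They were chosen by name, as members of the pathway, from 55356 named gene rows, and all 10 were among the 10634 genes with enough reads to test. RNA was measured in sections of the brachiocephalic artery, the first vessel off the aortic arch and a common site of plaques in hypercholesterolaemic mice. RNA came from 16 females. Every mouse carried a deletion of Apoe, which encodes an apolipoprotein that clears cholesterol-carrying particles from blood. They were Apoe-/-Mif-/- or Apoe-/- mice fed a diet with 0.2% cholesterol and 21.2% fat for 42 or 24 weeks, starting at 6 weeks of age, with 4 mice in each of the 4 groups. Mif encodes macrophage migration inhibitory factor, a cytokine. No group had an intact Apoe gene, and the labels name no cell type-specific driver for either deletion.

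TGF-β is made as an inactive complex with its own propeptide, and in many tissues latent TGF-β binding proteins tether that complex to the matrix. Once released, a ligand brings together the kinases Tgfbr2 and Tgfbr1, which phosphorylate Smad2 and Smad3. In arteries the pathway is known for its part in smooth muscle contractility, matrix deposition and plaque stability.

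Each library came from a few sections of 1 vessel and 1 ng of RNA, and total counts ran between 378066 and 8649518. Levels are CPM, counts scaled by library total and a TMM factor to a common size, and libraries are given in the order 1 to 4 within a group. Mif itself averaged 11.1 ± 5.80 CPM in Apoe-/-Mif-/- libraries and 151 ± 79.5 CPM in Apoe-/- libraries (SD, n = 8 each), and the highest Apoe-/-Mif-/- library, at 19.9 CPM, lay below the lowest Apoe-/- library, at 23.2 CPM. Apoe, deleted in every group, was at 2.58 to 194 CPM in 15 libraries and at 1127 CPM in Apoe-/- library 4 at 42 weeks. The table holds 1 count per gene and does not show which part of Apoe the reads came from, so Apoe levels do not check its deletion here. Markers of the vessel wall and plaque were present in every library: the 10 fibroblast markers summed to 2920 to 30310 CPM, the 10 contractile smooth muscle markers to 896 to 17290 CPM, the 12 macrophage markers to 2382 to 37430 CPM and the 10 endothelial markers to 205 to 5053 CPM. Markers of neighbouring tissue and blood varied too, with adipocyte markers summing to 121 to 25640 CPM, striated muscle to 71.1 to 5363 CPM, chondrocyte to 233 to 7681 CPM and erythroid to 136 to 20090 CPM. T cell markers summed to 3.69 to 4798 CPM, B cell markers to 0.296 to 118 CPM and platelet markers to 0.860 to 350 CPM. In such sections, fewer cells of a type and less RNA per cell cannot be told apart. The column names read as plate positions, by which the 24-week Apoe-/-Mif-/- group (4 libraries) occupied plate row C and the other 12 libraries row B. Row and group cannot be told apart in any comparison that uses row C. Mif deletion at 42 weeks, and diet duration in Apoe-/- mice, were compared within row B.

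The upstream sequences of Tgfb1 and Tgfb2 are shown because these 2 ligand genes differ in the letters found there. A relation between these letters and RNA levels was not tested. They are the 250 bases before the RefSeq start in build GRCm38.p6, written 5′ to 3′ on the gene's strand, at chr7:25686752-25687001 on the plus strand for Tgfb1 and at chr1:186705990-186706239 on the minus strand for Tgfb2. Capitals mark matches, on either strand, to 7 spelled motifs.
Tgfb1: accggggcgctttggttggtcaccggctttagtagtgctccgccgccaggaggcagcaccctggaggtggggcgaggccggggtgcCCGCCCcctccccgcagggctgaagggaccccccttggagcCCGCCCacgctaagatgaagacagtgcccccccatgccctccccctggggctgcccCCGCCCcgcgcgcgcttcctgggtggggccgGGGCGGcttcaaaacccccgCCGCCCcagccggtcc
Tgfb2: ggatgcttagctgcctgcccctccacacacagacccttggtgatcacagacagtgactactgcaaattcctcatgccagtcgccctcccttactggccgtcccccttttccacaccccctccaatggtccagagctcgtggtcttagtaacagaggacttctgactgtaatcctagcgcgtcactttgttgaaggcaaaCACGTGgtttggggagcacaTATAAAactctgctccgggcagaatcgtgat
The Tgfb1 window holds 5 GC boxes (GGGCGG or its complement) and no TATAAA. The Tgfb2 window holds 1 TATAAA, 31 bases before the start, and 1 CACGTG, 51 bases before it, with 0 GC boxes. Of 32851 promoter windows of the same length, 32.7% hold GGGCGG, 12.4% TATAAA and 6.02% CACGTG. The other motifs searched, on both strands, were TGACGTCA (1.55% of windows), TGANTCA (6.75%), GTCTAGAC (0.167%) and GGAATG (12.6%), and none of them is in either window. No motif overlaps another in its letters. Among the members with an entry, Tgfbr1 and Ltbp2 each had a window with 2 GC boxes, Ltbp1 had 1 TGACGTCA before its first start, and Tgfbr2 had no match. Tgfb3, Tgfbr3, Smad7 and Ccn2 are named without sequences. A match describes letters in this window and says nothing of a factor at it.

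Per kb of exon, Ltbp2 had the highest median level of the 10, at 152 CPM per kb over the 16 libraries. Ccn2 followed at 39.5, Ltbp1 at 21.3, Tgfb3 at 9.76 and Tgfbr2 at 6.93 CPM per kb. Tgfbr1 had a median of 2.10, Smad7 of 1.44, Tgfb2 of 1.35, Tgfbr3 of 1.16 and Tgfb1 of 1.03 CPM per kb. Among neighbours in this order, Ltbp2 was above Ccn2 in 15 of 16 libraries, Ltbp1 above Tgfb3 in 13, and both Ccn2 above Ltbp1 and Tgfbr2 above Tgfbr1 in 12. Tgfb3 was above Tgfbr2 in 10, and the order of the 5 genes at the low end (Tgfbr1, Smad7, Tgfb2, Tgfbr3 and Tgfb1) was close to even, with the gene of higher median ahead in 8, 9, 9 and 10 libraries. Tgfb3 thus had the highest median of the 3 ligand genes. Exon lengths came from another build's annotation than the authors' alignment, and parts of some genes overlap other annotated genes there (22.9% of Ccn2, 12.4% of Tgfb3 and 11.3% of Ltbp2), so reads of the pair cannot be told apart without strand.

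**Figure D1:**
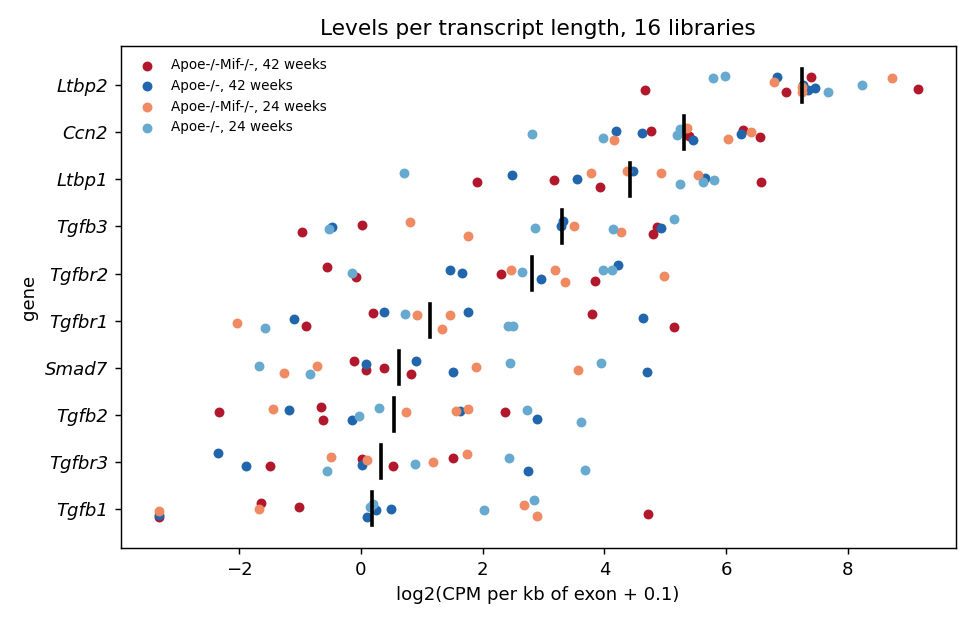
Level of each gene as log2(CPM per kb of exon + 0.1) on the x axis, 1 point per library coloured by group, and a black bar at the median of the 16 libraries. Ltbp2 lies highest and Ccn2 next, and the 5 genes at the bottom spread over the same range.

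Levels of the ligand genes were uneven between mice. Tgfb1, the ligand most studied in plaques, was at 0, 57.1, 0.479 and 0.860 CPM in Apoe-/-Mif-/- libraries and at 2.11, 2.36, 2.86 and 0 CPM in Apoe-/- libraries after 42 weeks. After 24 weeks it was at 13.7, 16, 0 and 0.463 CPM in Apoe-/-Mif-/- libraries and at 8.59, 2.20, 2.29 and 15.3 CPM in Apoe-/- libraries. A single Apoe-/-Mif-/- library at 42 weeks thus stood above all others and held 45.9% of the summed Tgfb1 level. The highest library of a tested gene held 32.2% in the median. The groups overlapped at both durations. The gene had 265 counts in all, fewer than 10 in 8 of the 16 libraries, and 3 libraries had a count of 0.

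Tgfb2, a ligand that needs a co-receptor for efficient binding, was at 0.514, 2.79, 2.87 and 26.2 CPM in Apoe-/-Mif-/- libraries and at 37.9, 1.77, 15.6 and 4.19 CPM in Apoe-/- libraries after 42 weeks. After 24 weeks Tgfb2 was at 17.0, 8.20, 14.8 and 1.39 CPM in Apoe-/-Mif-/- libraries and at 4.55, 33.9, 5.88 and 63.5 CPM in Apoe-/- libraries. Each of the 4 groups held a library below 5 CPM and one above 15 CPM. Tgfb3, the third ligand gene, was at 3.08, 1.39, 98.4 and 93.8 CPM in Apoe-/-Mif-/- libraries and at 2.11, 32.8, 33.3 and 103 CPM in Apoe-/- libraries after 42 weeks. Its 24-week levels were 11.1, 37.7, 65.3 and 5.55 CPM in Apoe-/-Mif-/- libraries and 2.02, 59.6, 119 and 24.1 CPM in Apoe-/- libraries. Each group held libraries above 30 CPM and libraries near or below 11 CPM, and the within-group spread of Tgfb3 (SD 2.35 on the log2 CPM scale) was above that of 84% of tested genes, whose median was 1.91. For Tgfb1 this SD was 2.11, above that of 67.2% of tested genes, and for Tgfb2 it was 1.74, above that of 35.4%.

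Receptor genes overlapped in the same way. Tgfbr1, the type I receptor kinase, was at 6.68, 2.79, 88.1 and 225 CPM in Apoe-/-Mif-/- libraries and at 21.1, 159, 2.34 and 7.67 CPM in Apoe-/- libraries after 42 weeks. After 24 weeks it was at 17.0, 11.5, 15.4 and 0.925 CPM in Apoe-/-Mif-/- libraries and at 1.52, 35.5, 33.6 and 10 CPM in Apoe-/- libraries. The 3 libraries above 80 CPM were all from 42 weeks and from both genotypes, while the other 5 libraries of that duration lay within the range of the 24-week libraries. Tgfbr2, the type II kinase that binds ligand first, was at 117, 6.96, 39.8 and 4.73 CPM in Apoe-/-Mif-/- libraries and at 152, 21.9, 62.9 and 25.1 CPM in Apoe-/- libraries after 42 weeks. Its levels after 24 weeks were 44.5, 83.1, 73.7 and 257 CPM in Apoe-/-Mif-/- libraries and 50.5, 128, 141 and 6.56 CPM in Apoe-/- libraries. All 4 groups overlapped. Tgfbr3, or betaglycan, the co-receptor that presents TGF-β2 to the kinases, was at 1.54, 5.57, 16.8 and 8.17 CPM in Apoe-/-Mif-/- libraries and at 40.1, 0.591, 1.04 and 5.58 CPM in Apoe-/- libraries after 42 weeks. At 24 weeks Tgfbr3 had 19.7, 5.95, 13.2 and 3.70 CPM in Apoe-/-Mif-/- libraries and 3.54, 32.4, 10.7 and 77.8 CPM in Apoe-/- libraries. The 3 highest libraries were Apoe-/- libraries of both durations, and the other Apoe-/- libraries lay within or below the range of Apoe-/-Mif-/- libraries.

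**Figure D2:**
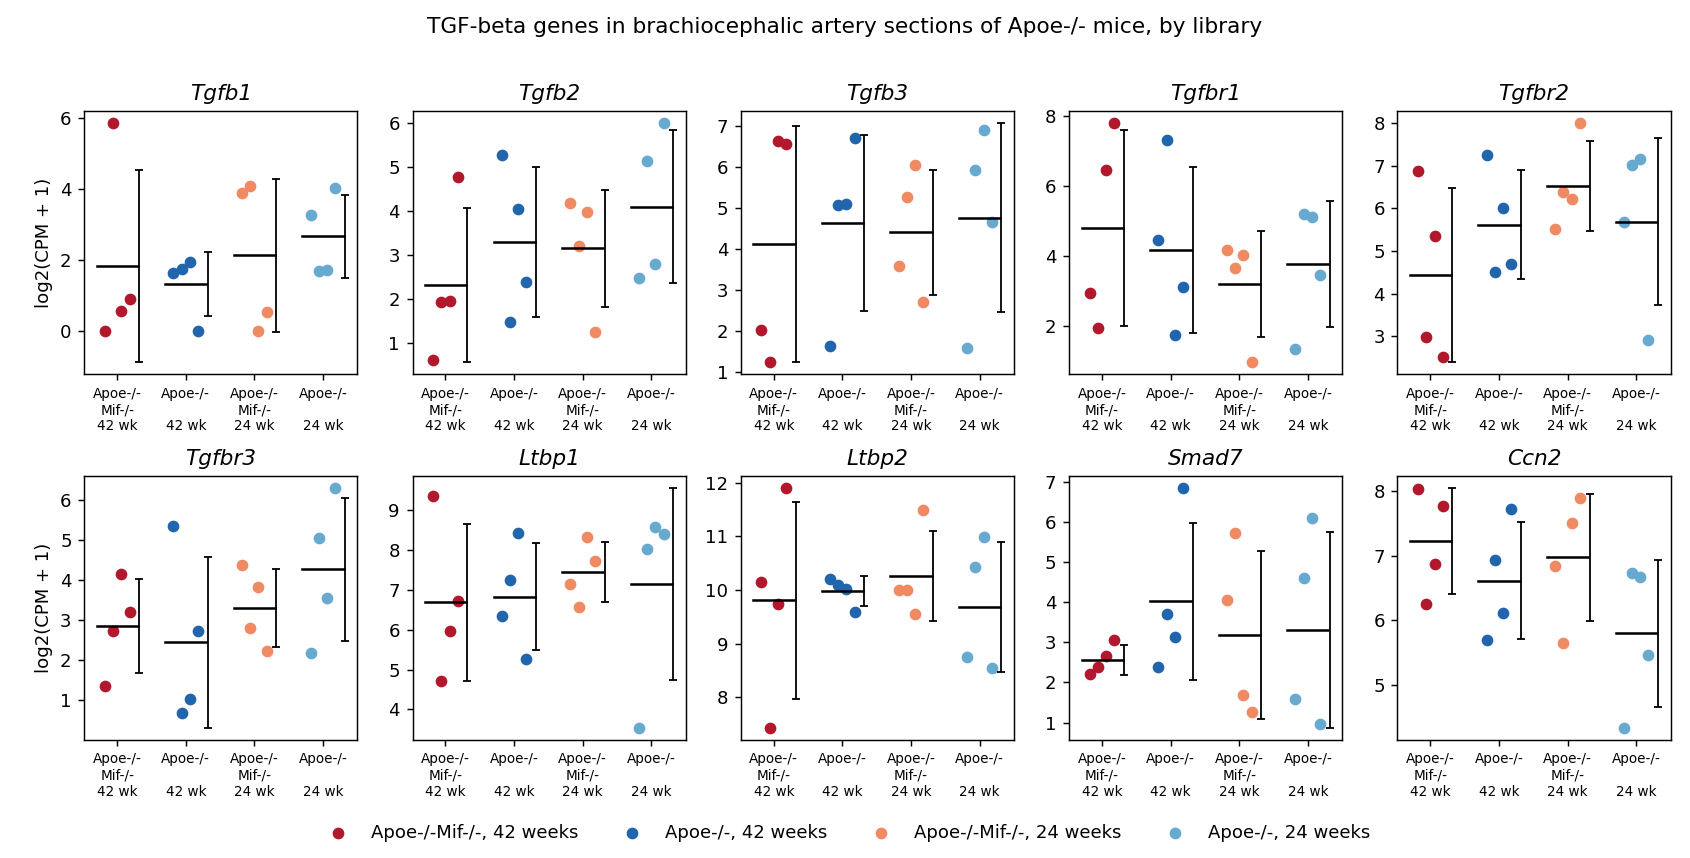
Level of each of the 10 genes as log2(CPM + 1) on the y axis for the 4 groups on the x axis, with 1 point per library, the group mean as a black line and its SD as a bar (n = 4). The groups overlap in every panel, and single libraries stand far above their group for Tgfb1, Tgfbr1 and Smad7.

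Among the latency proteins, Ltbp1, which tethers latent TGF-β to fibrillin-rich matrix, was at 655, 25.1, 61.8 and 104 CPM in Apoe-/-Mif-/- libraries and at 80.1, 152, 346 and 37.7 CPM in Apoe-/- libraries after 42 weeks. After 24 weeks it was at 141, 93.9, 321 and 210 CPM in Apoe-/-Mif-/- libraries and at 10.6, 261, 384 and 340 CPM in Apoe-/- libraries. One Apoe-/-Mif-/- library at 42 weeks was the highest and one Apoe-/- library at 24 weeks the lowest of all 16. Ltbp2, a matrix protein of the same family that does not bind latent TGF-β, was at 1138, 171, 853 and 3827 CPM in Apoe-/-Mif-/- libraries and at 1187, 1098, 1034 and 768 CPM in Apoe-/- libraries after 42 weeks. At 24 weeks Ltbp2 had 1023, 1024, 748 and 2865 CPM in Apoe-/-Mif-/- libraries and 428, 1376, 2026 and 373 CPM in Apoe-/- libraries. The 4 Apoe-/- libraries at 42 weeks were close together (SD 0.27 on the log2 scale), and the Apoe-/-Mif-/- libraries of that duration lay on both sides of them (SD 1.84).

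Of the response genes, Smad7, the inhibitory Smad that acts as feedback on the receptors, was at 3.60, 4.18, 5.27 and 7.31 CPM in Apoe-/-Mif-/- libraries and at 4.22, 12.1, 7.80 and 114 CPM in Apoe-/- libraries after 42 weeks. Its 24-week levels were 15.7, 51.7, 2.23 and 1.39 CPM in Apoe-/-Mif-/- libraries and 2.02, 23.5, 67 and 0.938 CPM in Apoe-/- libraries. The Apoe-/-Mif-/- libraries at 42 weeks lay close together near the median over the 16 libraries, 6.29 CPM. The lowest libraries were from 24 weeks, in both genotypes. Among Apoe-/- libraries at 42 weeks, 1 at 114 CPM stood far above the rest of its group. It held 35.2% of the summed level, where the highest library of a tested gene held 32.2% in the median. Ccn2, which encodes the matricellular protein connective tissue growth factor, was at 259, 75.2, 116 and 216 CPM in Apoe-/-Mif-/- libraries and at 50.6, 121, 67.8 and 211 CPM in Apoe-/- libraries after 42 weeks. After 24 weeks Ccn2 was at 114, 49.0, 181 and 236 CPM in Apoe-/-Mif-/- libraries and at 19.2, 105, 101 and 43.1 CPM in Apoe-/- libraries. The groups overlapped at both durations, and Ccn2 was the steadiest of the 10 genes, with a within-group SD of 0.97 on the log2 scale, above that of 4.3% of tested genes.

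The comparison of genotypes asked whether Mif deletion went with other levels of these genes, at each duration. The threshold was a Benjamini-Hochberg adjusted p under 0.05 in edgeR's quasi-likelihood test, fitted over all 16 libraries and adjusted over 10634 genes. At 42 weeks, 0 of 10 members were called (background 0.0%), 0 had an unadjusted p under 0.05 (background 17.3%), and 0 had groups that did not overlap (background 2.2%). Fitted log2 fold changes, Apoe-/-Mif-/- over Apoe-/-, were positive for 6 members and negative for 4, with a median of 0.33, beside 0.09 over all tested genes. Smad7 had the smallest p, with a log2 fold change of -2.75 ± 1.63 (SE), a 95% interval of -6.04 to 0.55 and an edgeR adjusted p of 0.373. Without the Apoe-/- library at 114 CPM, which is also the library with 1127 CPM of Apoe, its fold change was -0.60. Tgfb1 followed with 2.92 ± 1.92 and an edgeR adjusted p of 0.427, and without the Apoe-/-Mif-/- library at 57.1 CPM it was -1.88, so that 1 library set its direction.

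At 24 weeks, 0 of 10 members were called by edgeR (background 0.047%), 0 had an unadjusted p under 0.05 (background 7.33%) and 0 had groups that did not overlap (background 3.84%). Fold changes of Apoe-/-Mif-/- over Apoe-/- were positive for 4 members and negative for 6, with a median of -0.39 beside -0.18 over all tested genes. Ccn2 averaged 145 ± 81.3 CPM in Apoe-/-Mif-/- libraries and 67.1 ± 42.7 CPM in Apoe-/- libraries (SD, n = 4 each). Its log2 fold change was 1.11 ± 0.99 (SE), with an edgeR adjusted p of 0.927. Tgfbr3 averaged 10.6 ± 7.25 CPM in Apoe-/-Mif-/- libraries and 31.1 ± 33.5 CPM in Apoe-/- libraries, a log2 fold change of -1.55 ± 1.54 with an edgeR adjusted p of 0.941. Without Apoe-/- library 4, at 77.8 CPM, it was -0.55, and the same library held 4798 CPM of T cell markers, against at most 273 CPM in the other 15. Averaged over both durations, 0 members were called (background 0.0%) and 0 had an unadjusted p under 0.05 (background 13%). The difference between the 2 genotype effects, tested as an interaction, was called for 0 of 10 members (background 0.686%) and was under 0.05 unadjusted for 0 (background 14.2%).

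The comparison of durations asked whether a longer time on the diet, which is also a greater age, went with other levels. In Apoe-/-Mif-/- mice, 0 of 10 members were called by edgeR between 42 and 24 weeks (background 0.122%), 0 had an unadjusted p under 0.05 (background 13.1%) and 0 had groups that did not overlap (background 4.38%). Tgfbr1 averaged 80.7 ± 104 CPM at 42 weeks and 11.2 ± 7.24 CPM at 24 weeks (SD, n = 4 each), a log2 fold change of 2.85 ± 1.54 (SE) with a 95% interval of -0.28 to 5.97 and an edgeR adjusted p of 0.432. Without Apoe-/-Mif-/- library 4 at 42 weeks, at 225 CPM, it was 1.50. In Apoe-/- mice, 0 members were called (background 0.0%), 0 had an unadjusted p under 0.05 (background 12.2%) and 0 had groups that did not overlap (background 4.16%). There Tgfbr1 averaged 47.4 ± 74.6 CPM at 42 weeks and 20.2 ± 17.0 CPM at 24 weeks, a log2 fold change of 1.24 ± 1.46, and without Apoe-/- library 2 at 42 weeks, at 159 CPM, it was -0.97, so that 1 library set its direction. Over both genotypes, 0 members were called (background 0.0376%) and 0 had an unadjusted p under 0.05 (background 13.6%), and the Tgfbr1 log2 fold change was 2.04 ± 1.06 with an interval of -0.10 to 4.18 and an edgeR adjusted p of 0.388. It was 1.01 without the Apoe-/- library at 159 CPM. For the same contrast DESeq2 gave Tgfbr1 an adjusted p of 0.0882, the smallest of any member in the settings run, and called 0 of 10 members (background 4.67%).

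**Figure D3:**
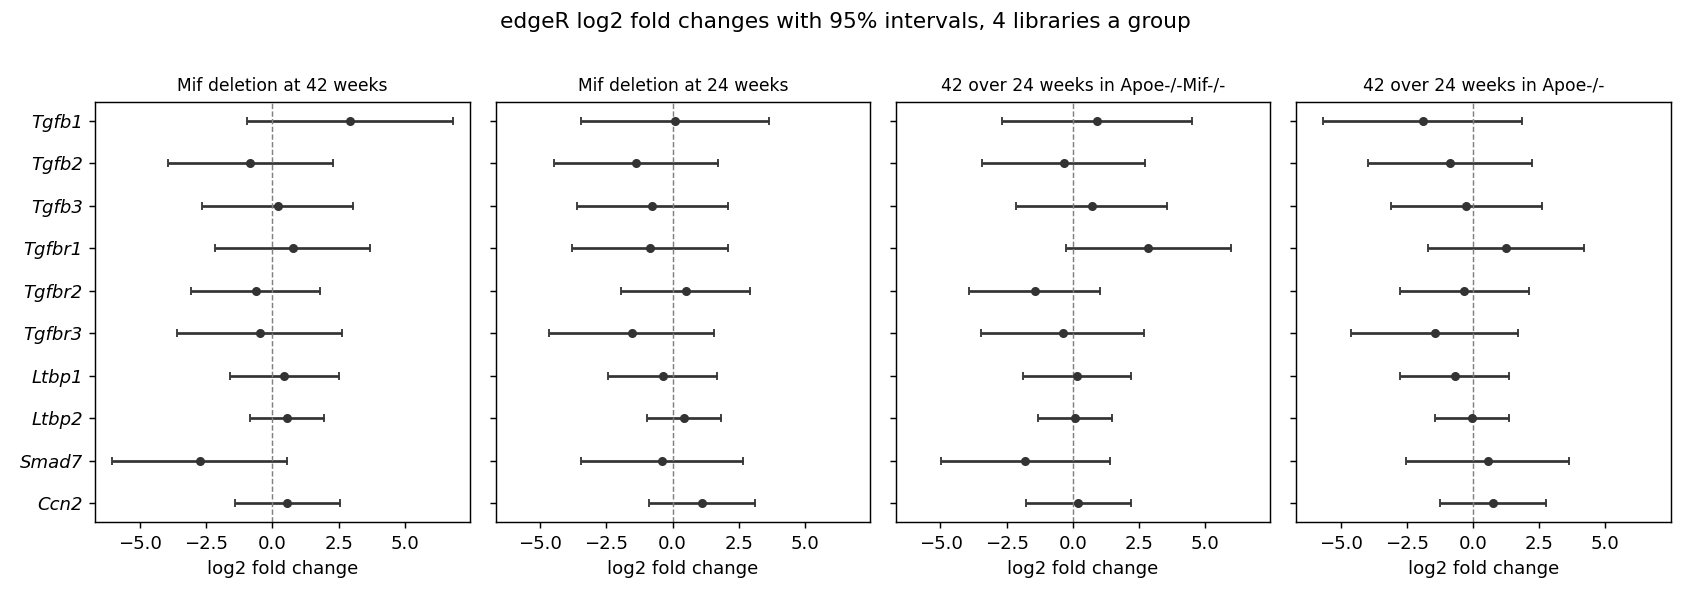
Fitted log2 fold change of each gene in the 4 comparisons of single groups, with a 95% interval derived from edgeR's F statistic. All intervals include 0, and those of Ltbp2 are the narrowest.

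The widths of these intervals differed between members. For Ltbp2 the 95% interval ran from -0.86 to 1.96 on the log2 scale for Mif deletion at 42 weeks and from -0.98 to 1.84 at 24 weeks. For 42 over 24 weeks averaged over both genotypes it was -0.97 to 1.01. For Tgfb1 the interval for Mif deletion at 42 weeks was -0.97 to 6.82. Differences within such an interval were not excluded with 4 mice in each group. The intervals are for single genes and carry no adjustment over the genes tested.

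Other genes of the pathway, in 3 lists, were read beside the members. Of 17 latency and activation genes, 19 receptor and Smad genes and 22 response genes, 12, 17 and 21 were tested, and edgeR called 0 of these 50 genes in any of the 7 comparisons, while DESeq2 called 0 to 3 of them per comparison. The 3 were for 42 over 24 weeks over both genotypes, 6.0% of the 50, where DESeq2 called 4.67% of all tested genes. At an unadjusted p under 0.05 there were 6 of the 50 for Mif deletion at 42 weeks (12%, background 17.3%) and 0 at 24 weeks (background 7.33%). For 42 over 24 weeks there were 7 of 50 in Apoe-/-Mif-/- mice (14.0%, background 13.1%) and 3 of 50 in Apoe-/- mice (6.0%, background 12.2%). The latency and activation list leaves out the members. Of these, Ltbp1 had fold changes for Mif deletion of -0.38 at 24 weeks and 0.46 at 42 weeks, and Ltbp2 of 0.43 and 0.55. All 12 tested genes of that list had positive fold changes for Mif deletion at 24 weeks, with a median of 0.42. At 42 weeks 10 of 12 did, with a median of 0.55, beside medians of all tested genes of -0.18 and 0.09. With limma voom these counts were 11 of 12 at 24 weeks and 6 of 12 at 42 weeks, where the median was -0.05. At 24 weeks the count was 9 of 13 and the median 0.10 without Apoe-/- library 1, and at 42 weeks the count was 7 of 13 and the median 0.14 without Apoe-/-Mif-/- library 1. Fibroblast markers summed to a median of 14910 CPM (10600 to 18820) in Apoe-/-Mif-/- libraries and 11520 CPM (2920 to 18700) in Apoe-/- libraries at 24 weeks. At 42 weeks they summed to 22320 CPM (3458 to 30310) in Apoe-/-Mif-/- libraries and 9410 CPM (6563 to 17990) in Apoe-/- libraries, with all 10 markers detected in each library, and their part in the list's medians was not tested. Ltbp4, a family member that tethers latent TGF-β1, averaged 1073 ± 841 CPM in Apoe-/-Mif-/- libraries and 579 ± 350 CPM in Apoe-/- libraries at 24 weeks. Its edgeR adjusted p was 0.885. Thbs1, which encodes thrombospondin 1, an activator of latent TGF-β, averaged 323 ± 245 CPM in Apoe-/-Mif-/- libraries and 92.5 ± 84.8 CPM in Apoe-/- libraries at 42 weeks (edgeR adjusted p of 0.372).

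Among the receptor and Smad genes, Smad2, the receptor-activated Smad, ranged between 1.03 and 577 CPM in Apoe-/-Mif-/- libraries and between 0 and 2.79 CPM in Apoe-/- libraries at 42 weeks (edgeR adjusted p of 0.176). The group ranges of Smad2 overlapped, and 1 library was far above the others. Skil, a repressor of Smad activity, averaged 9.74 ± 5.06 CPM in Apoe-/-Mif-/- libraries and 0.890 ± 1.23 CPM in Apoe-/- libraries at 24 weeks (edgeR adjusted p of 0.734). These groups did not overlap, at 2.775 to 13.75 CPM and 0 to 2.701 CPM, as in 3.84% of tested genes. After 42 weeks Skil averaged 2.01 ± 1.62 CPM in Apoe-/-Mif-/- libraries and 28.0 ± 42.2 CPM in Apoe-/- libraries. At 42 weeks Skil ranged between 0 and 3.60 CPM in Apoe-/-Mif-/- libraries and between 0 and 89.3 CPM in Apoe-/- libraries. The gene had only 384 counts over all libraries. Of the response genes, 16 of 21 had positive fold changes for Mif deletion at 24 weeks and 15 of 21 at 42 weeks, with medians of 0.62 and 0.65. Without Apoe-/- library 4 the 24-week count was 14 of 22 and the median 0.18, and without Apoe-/-Mif-/- library 4 the 42-week count was 11 of 22 and the median 0.03. Id1, an inhibitor of differentiation factors, averaged 433 ± 565 CPM in Apoe-/-Mif-/- libraries and 52.1 ± 52.2 CPM in Apoe-/- libraries at 42 weeks (edgeR adjusted p of 0.195). Fn1, which encodes the matrix protein fibronectin, averaged 15970 ± 14650 CPM in Apoe-/-Mif-/- libraries and 6556 ± 2789 CPM in Apoe-/- libraries (edgeR adjusted p of 0.227). The groups overlapped in both genes: Id1 ranged between 8.86 and 1208 CPM in Apoe-/-Mif-/- libraries and between 8.43 and 121 CPM in Apoe-/- libraries, and Fn1 between 1657 and 34290 CPM in Apoe-/-Mif-/- libraries and between 3233 and 9461 CPM in Apoe-/- libraries. Between 42 and 24 weeks in Apoe-/-Mif-/- mice, Smurf2, Cdkn1a and Tgfb1i1 did not overlap, as in 4.38% of tested genes. Smurf2 was at 15.3 to 293 against 2.775 to 12.6 CPM, and Cdkn1a at 337 to 739 against 79.1 to 226 CPM. Tgfb1i1 was lower at 42 weeks, at 22.3 to 163 against 233 to 902.5 CPM. Overlap was not counted over the whole lists, and edgeR called none of these genes.

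Across the 16 mice, a few members moved with each other. Of 45 pairs, 2 passed Benjamini-Hochberg adjustment over the 45 by Spearman's rho, and 0 by Pearson's r. Group means were not subtracted for these values, so differences between groups can enter them. Tgfb2 and its co-receptor gene Tgfbr3 had a rho of 0.73 (permutation p of 0.0019, adjusted 0.0427) and an r of 0.72 (permutation p of 0.00165, adjusted 0.0693) on log2 CPM. Without the 2 libraries farthest from the median of Tgfb2, r was 0.59 and rho 0.65 over 14 libraries, and within plate row B rho was 0.72 over 12 libraries (adjusted 0.154). The highest Tgfb2 library, an Apoe-/- library at 24 weeks, was also the highest for Tgfbr3. It was the library with 4798 CPM of T cell markers, and without it rho was 0.67 (adjusted 0.164). Over the 16 fits that each leave out 1 library, the adjusted p of this pair ran between 0.0063 and 0.17. Low counts limit this pair, since Tgfb2 had fewer than 10 counts in 6 of 16 libraries and Tgfbr3 in 7. Some other genes followed each of the 2 more closely: among 10633 genes Tgfbr3 ranked 18th for Tgfb2, and Tgfb2 ranked 35th for Tgfbr3.

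Tgfb1 and Ccn2 ran opposite to each other, with a rho of -0.77 (permutation p of 0.0007, adjusted 0.0315) and an r of -0.69 (permutation p of 0.00308, adjusted 0.0693). Without the 2 libraries farthest from the median of Tgfb1, r was -0.75, and within plate row B rho was -0.75 (adjusted 0.153). Leaving out each library gave adjusted p values for rho between 0.0166 and 0.0857. The pair rests on low counts, since Tgfb1 had fewer than 10 counts in 8 of 16 libraries. The next pairs, Tgfb3 with Smad7 (rho 0.60, adjusted 0.239) and Tgfb3 with Tgfbr1 (rho 0.54, adjusted 0.379), did not pass, and the median rho over the 45 pairs was 0.047, beside 0.032 over pairs drawn evenly from all tested genes. Against 11 cell type marker lists, total counts and the mitochondrial share, 0 of 130 correlations passed adjustment, by r (smallest adjusted p of 0.138) or by rho (0.208). The closest of them by r was Ccn2 with the contractile smooth muscle list (r 0.73, rho 0.68). Tgfb3 with total counts (r 0.69, rho 0.63) and Ltbp1 with the fibroblast list (r 0.69, rho 0.51) followed, with the same adjusted p. By rho the closest was Smad7 with the striated muscle list (rho -0.74, r -0.59).

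**Figure D4:**
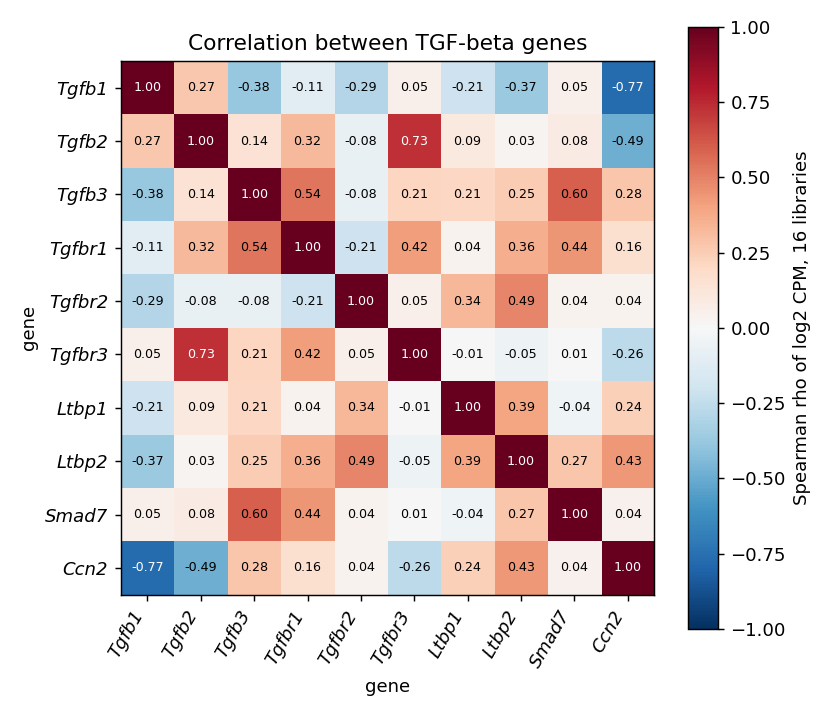
Spearman's rho between each pair of the 10 genes, over log2 CPM in 16 libraries, with red for positive and blue for negative values. Tgfb2 with Tgfbr3 is the highest at 0.73 and Tgfb1 with Ccn2 the lowest at -0.77.

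**Figure D5:**
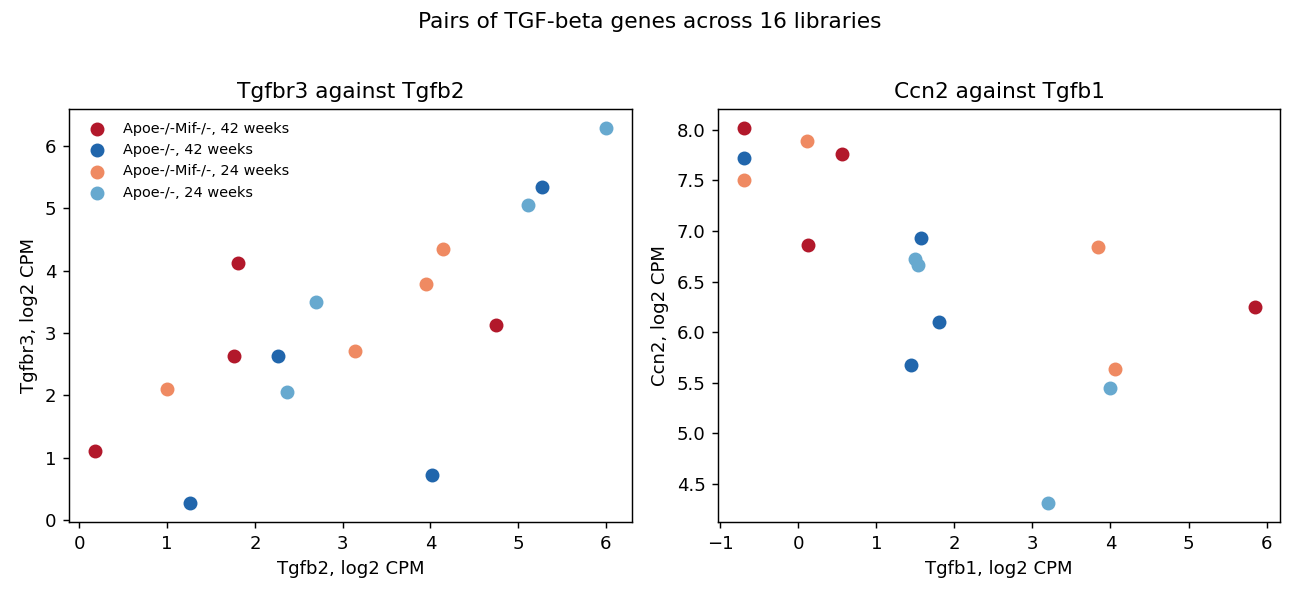
Levels of the 2 pairs that passed by rho, as log2 CPM on both axes, 1 point per library coloured by group. Tgfb2 and Tgfbr3 tend to be high in the same libraries, and Ccn2 is lower in libraries where Tgfb1 is higher.

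The genes whose levels over the 16 libraries were most like each member, by Spearman's rho among 9427 genes detected in at least 12 libraries, are given as a description with no test. For Tgfb3 they were Elovl1 (0.88), Rac1 (0.86) and Col3a1 (0.85), which encode a fatty acid elongase, a small GTPase and a fibrillar collagen. For Tgfb2 they were Mdm4 (0.89), Vps36 (0.84) and Pcgf5 (0.79), and for Tgfb1 they were Rlim (0.79), Ccnd3 (0.79) and Arl5a (0.76). Among receptors, the genes like Tgfbr1 included Ap1s2 (0.87) and Mir22hg (0.86). Tgfbr2 was most like Rftn2 (0.87), Ttc28 (0.85) and Copz2 (0.83), and Tgfbr3 was most like Peli1 (0.84), Csnk1a1 (0.83) and Naa35 (0.82). Ltbp1 was most like Wrap73 (0.84), Atxn7l3 (0.83) and Csrp1 (0.82). The genes like Ltbp2 included Cpe (0.86) and Tmem50a (0.86). Smad7 was most like Csf2ra (0.79), a cytokine receptor chain, then Sdf2l1 (0.77) and Inafm1 (0.77). Ccn2 was most like Aebp1 (0.87), Bgn (0.86) and Plac9 (0.86), and the first 2 encode extracellular matrix proteins. These correlations share the same libraries, depth and tissue makeup.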

How the data were processed

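The authors deposited integer read counts for each gene symbol, from Smart-seq2 reads (2 × 100 bp, no molecular identifiers, no strand). Per the submitters' processing notes, cutadapt 1.18, Trim Galore 0.6.4, FastQC 0.11.5, STAR 2.5.2b and build GRCm39 were used, and the counting program is not given in the sources used here. A second deposited table held variance-stabilised log2 values, used as an alternative. Of 55359 rows, 1 with a blank name (at most 0.00257% of a library's counts) and 2 reporter rows were left out.

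Counts were fitted with edgeR 4.0.16 in R 4.3.3 (TMM, filterByExpr with a minimum count of 10 and total of 15, quasi-likelihood test, 12 residual degrees of freedom). Each SE was derived as the size of the log2 fold change divided by the square root of the test's F statistic. Intervals used that SE and a t distribution with 37.16 degrees of freedom. Totals were 378066 to 8649518 counts per library. The labels name a separate mouse for each library but no replicate numbers, so libraries were numbered in accession order. Correlations used 100000 permutations of the libraries regardless of group, two-sided. Promoter windows came from RefSeq (GRCm38.p6) and matched 6 of 10 members, and exon lengths came from GENCODE vM21. The code was tested on simulated data.

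The members and the pathway and marker lists were chosen with earlier results of these data known. Named were all members, the 2 smallest-p members of each comparison, pathway genes among the 2 smallest p of each list, and the 3 most alike genes, of which 1 for Tgfbr1 and 1 for Ltbp2 are not reported here. Alternatives were DESeq2 1.42.0, its size factors, no filter, limma 3.58.1 (voom, and variance-stabilised values), plate row B alone and leaving out each library.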

Additional observations from a re-analysis of the deposited data

Results flagged for a closer look

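In 3 cases the lowest library of a group of 4 was set apart from the other 3 on the log2 CPM scale, with a gap over range above Dixon's 95% critical value. For Tgfb1 it was Apoe-/- library 4 at 42 weeks, with 0 CPM (ratio 0.859), where the other 3 libraries had 2.11 to 2.86 CPM. The library had a count of 0, 3 counts there are worth 2.09 CPM, and the neighbour at 2.11 CPM had 1 count. Its place on the log2 scale is set by the prior count, and a difference from the others was not detectable at this depth. For Tgfbr1 it was Apoe-/-Mif-/- library 4 at 24 weeks, with 0.925 CPM (ratio 0.845), beside 11.5 to 17.0 CPM in the others. The value rests on 2 counts, where 3 counts are worth 1.39 CPM, so its place on the log2 scale also depends on the prior count. For Ltbp1 it was Apoe-/- library 1 at 24 weeks, with 10.6 CPM (ratio 0.891), beside 261 to 384 CPM in the others. That library also had the lowest summed smooth muscle (896 CPM), fibroblast (2920 CPM) and macrophage (2382 CPM) markers of the 16 and the highest striated muscle markers (5363 CPM). Its adipocyte markers summed to 24710 CPM and its mitochondrial share was 10.2%, the highest of all. The part of these in its Ltbp1 level was not tested. Chance flags about 1 group in 20, and 40 groups were examined.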

How the results depend on the processing

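No member was called in 22 other settings, of which plate row B alone gave 18 of the 70 fold changes (2 comparisons, without Tgfb1), and the smallest adjusted p was 0.0882 (DESeq2, Tgfbr1, 42 over 24 weeks). Of the 70 fold changes of members, 29 kept their sign in every setting that gave them. With limma voom, Tgfb1 for Mif deletion at 42 weeks was -0.0856 and Ltbp2 for 42 over 24 weeks in Apoe-/-Mif-/- mice was -0.0745. Ltbp2 for 42 over 24 weeks in Apoe-/- mice was 0.50 with DESeq2's size factors, 0.50 with DESeq2, 0.65 with the variance-stabilised values and 0.0083 in plate row B. Leaving out each library, Tgfb1 ran from -1.88 to 3.40 for Mif deletion at 42 weeks and from -1.90 to 3.70 for the interaction. Ltbp2 ran from -0.20 to 0.97 for Mif deletion at 24 weeks, from -0.44 to 1.05 at 42 weeks, from -0.95 to 0.87 for 42 over 24 weeks in Apoe-/-Mif-/- mice and from -0.33 to 0.50 in Apoe-/- mice. The cause was not tested. The count of correlated pairs was 0 in plate row B and 0 to 3 without single libraries. DESeq2's size factors moved the median fold change of all genes by 0.06 to 0.42 and turned 12 of 70 signs. Calls over all genes numbered 0 to 73 per comparison with edgeR, 18 to 426 without the filter and 207 to 902 with DESeq2. Levels of Tgfb1, Tgfb2, Tgfbr3 and Smad7 are limited by counts under 10 in 6 to 8 libraries, and those of Tgfb3 and Tgfbr1 by such counts in 4. No paired analysis was possible because the labels give no replicate numbers that the groups share.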
